A study of Homo sapiens with 33 samples.

Results

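The gene group described here is a list of 57 protein-coding genes on the end of the long arm of chromosome 9, all lying between CDK9 and the 9q telomere. CDK9 itself is at chr9:127785679-127790787 in GENCODE release 29 on GRCh38. The list was given by gene symbol and by position, chosen with earlier results of these data known. It holds 57 of the 59428 entries in the count table. It runs in map order from FPGS, 3.81 kb beyond the end of CDK9, to EHMT1, 9828 kb beyond it. All 57 members passed the filter on low counts in the knockout libraries, where 167 tested genes in all are annotated distal to CDK9. The question for these genes was whether their transcripts are lower in cells in which CDK9 had been targeted than in cells in which another locus, or none, had been targeted.

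CDK9 is the kinase of the elongation factor P-TEFb, which phosphorylates RNA polymerase II and releases it from pausing near promoters. CDK7 belongs to TFIIH and to the kinase that activates other CDKs, and CDK1 drives entry into mitosis. As background, a chromosome broken and not rejoined leaves the stretch between the break and the telomere without a centromere, and such a stretch can be lost when the cell divides. Genes on it would then have fewer copies, whatever their function. The labels do not say how the knockouts were made, and no measurement of DNA copy number was used here.

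The knockout libraries are all of MDA-MD-231, spelled as in the labels, a breast cancer cell line. CDK9-targeted libraries are CDK9 KO at 72 and 96 h and CDK7/9 KO at 72 and 96 h, 4 in all. CDK9-intact libraries are CDK1 KO, CDK7 KO and empty vector at 72 and 96 h, 6 in all, and a parental library of the same part has no time and no vector. In a second set of 22 libraries, nothing targeted the CDK9 gene. Cells of MDA-MD-231 and of MDA-MD-468, also a breast cancer line, were sampled after 3, 6 and 12 h with SY200, V50 or SY200/V50, and at 0 h as DMSO and parental libraries. The series describes these treatments as inhibitors of CDK7, of CDK9 and of both, and the labels do not say which name acts on which kinase. Expression was read by QuantSeq 3' mRNA sequencing, which gives reads near the 3' end of each polyadenylated transcript. Each genotype and time has 1 library, and separate cultures are not stated. Knockout p-values set each change against how far effects differ between the 2 times, a spread that may be technical. In bulk RNA, fewer cells expressing a gene and less RNA per cell cannot be told apart. The counts are of gene symbols, and levels are given as CPM, each gene's share of its library's counts after TMM scaling.

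Library totals were between 16985219 and 22417327 counts in the 10 knockout libraries at 72 and 96 h. The 8 listed MDA-MB-231 markers had medians between 542 and 641 CPM across the 11 knockout-part libraries, against 0.608 to 1.68 CPM for the 8 MDA-MB-468 markers. Of the MDA-MB-231 markers, ZEB1 was at 83.8 to 95.1 CPM in CDK9-targeted and 95.8 to 111.6 CPM in CDK9-intact libraries. LOX was at 56.9 to 69.4 and 71.2 to 117.9 CPM. The groups overlapped for VIM, AXL, CAV1, CD44, SNAI2 and MSN. The summed MDA-MB-468 markers were at 171 to 258 CPM in the 4 CDK9-targeted libraries and 300.1 to 449 CPM in the 6 CDK9-intact ones. Of these sums KRT19 alone gave 116 to 192 CPM and 238 to 359 CPM. CDH1 was also apart, at 0.110 to 0.199 and 0.222 to 0.803 CPM. The groups overlapped for EPCAM, CLDN4, ESRP1, ESRP2 and RAB25. GRHL2 was near 0 in both, at 0 CPM in CDK9-targeted and 0 to 0.052 CPM in CDK9-intact libraries. The 6 immune markers summed to 6.18 to 8.31 CPM in CDK9-targeted and 8.08 to 13.9 CPM in CDK9-intact libraries. Among them PTPRC alone was apart, at 0.881 to 1.24 and 1.28 to 1.87 CPM. The empty vector library at 96 h stood apart from the rest: over 9797 genes its median correlation with the other 9 libraries was 0.956, where the others had 0.979 to 0.987, and the members' medians and counts are given with and without it for most comparisons that use it. Mitochondrially encoded mRNAs took 5.04% to 5.98% of counts in the 4 CDK9-targeted libraries and 2.60% to 4.01% in the 6 CDK9-intact ones, without overlap. Whether these shares and marker levels have a part in the members' differences was not tested, and values scaled to mitochondrial mRNAs are given where a direction changes.

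CDK9 transcripts were present at 33.2 and 36.4 CPM in CDK9 KO cells at 72 and 96 h, and at 34.3 and 36.6 CPM in CDK7/9 KO cells. The 6 CDK9-intact libraries had 62.1 to 73.7 CPM, so the groups did not overlap, and the log2 fold change was -0.98 ± 0.07 (SE; edgeR quasi-likelihood test, adjusted p = 5.2e-05). CDK7 was at 13.7 to 17.1 CPM in the 4 libraries with CDK7 targeted and at 45.1 to 66.5 CPM in the other 6. CDK1 was at 81.7 and 84.3 CPM in CDK1 KO cells, but the parental library had 84.4 CPM, and empty vector had 178 CPM at 72 h and 283 CPM at 96 h. Where in each gene the change was made is not given, so a 3' tag checks the labels only in part.

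As a group, the genes beyond CDK9 were slightly lower in CDK9-targeted cells. The median log2 fold change of the 57 members, CDK9-targeted over CDK9-intact, was -0.125, against -0.008 over all 16783 genes tested, and 43 members had a negative value. Of the 57, 17 fell at a Benjamini-Hochberg adjusted p under 0.05 (29.8% of the members), beside 11.2% of all genes tested, and 3 rose, beside 11.5% of all genes. Members whose 4 CDK9-targeted values all lay below the 6 CDK9-intact values numbered 11, beside 7.25% of all genes, and 1 member, DPP7, had all 4 above, beside 9.09%. The 110 tested genes of the same stretch that were not on the list had a median of -0.121, with 24 lower and 8 higher.

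**Figure D1:**
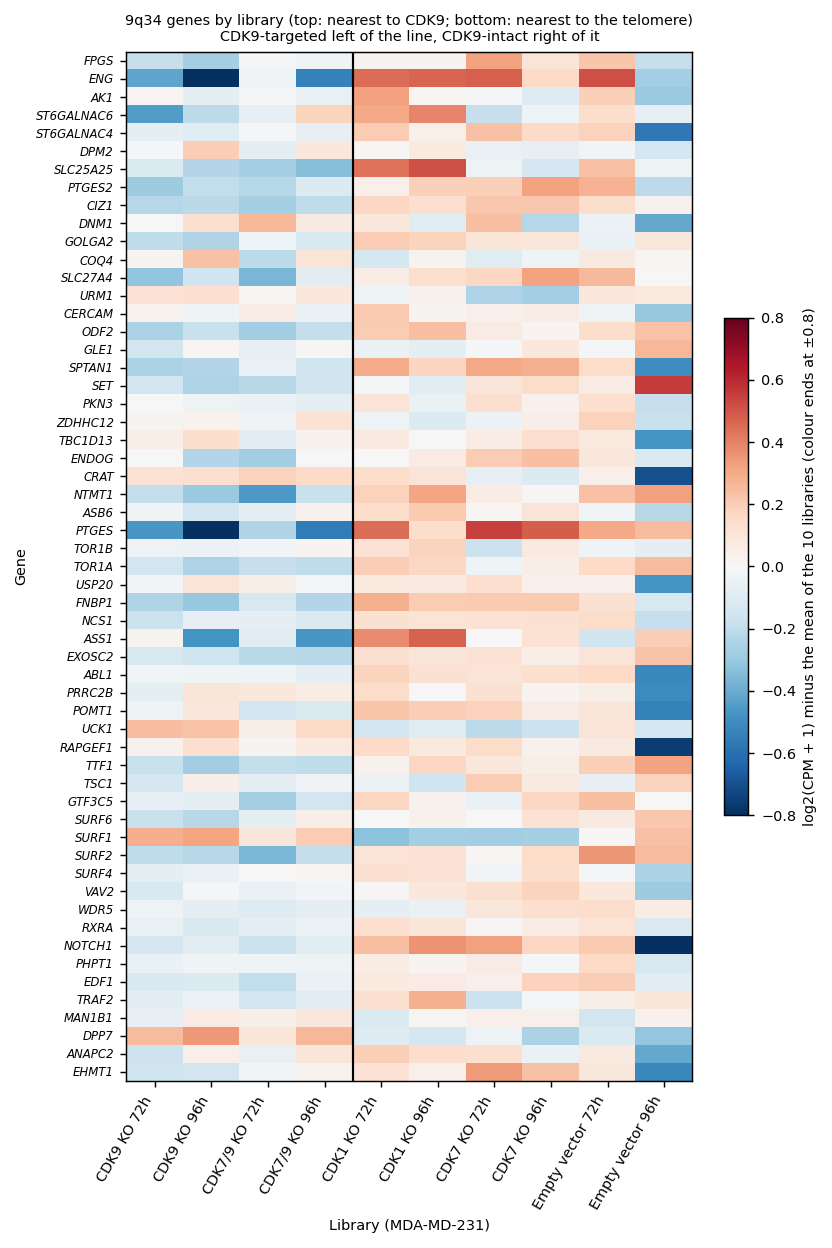
Level of each of the 57 members in each knockout library, as log2(CPM + 1) minus the mean of the 10 libraries. Genes run down the page from CDK9 to the telomere, CDK9-targeted libraries are left of the line and CDK9-intact libraries right of it. Blue is common left of the line, and the empty vector library at 96 h holds both dark blue cells (RAPGEF1, NOTCH1, CRAT) and a dark red one (SET).

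A score for each library, the median over the members of log2(CPM + 1) minus the mean of the 10 libraries, was -0.072 and -0.071 in CDK9 KO cells and -0.069 and -0.054 in CDK7/9 KO cells at 72 and 96 h. CDK1 KO cells scored 0.121 and 0.086, CDK7 KO cells 0.065 and 0.073, and empty vector cells 0.101 at 72 h and -0.126 at 96 h. The parental library, which entered no fit, scored 0.080. The 4 CDK9-targeted libraries thus lay within a narrow band, below 5 of the 6 CDK9-intact libraries and above empty vector at 96 h. Shares over all genes are not given for the next counts, so they cannot be read as particular to the members. In empty vector at 96 h, 24 members had their lowest level of the 10 libraries and 7 their highest. Without it, the members' median was -0.172, against -0.0002 over all genes, with 32 lower and 5 higher members, beside 18.9% and 18.8% of all genes tested. The 17 members that fell with all 10 libraries fell without it too, and 25 members then had their 4 CDK9-targeted values below all others, beside 10.8% of all genes. Leaving out the empty vector library at 72 h instead gave a median of -0.094, with 26 lower and 9 higher members, beside 22.5% and 20.9% of all genes tested.

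Among the members that act in metabolism, PTGES had the largest fall of those with a mean of at least 10 CPM. PTGES encodes the microsomal synthase that makes prostaglandin E2. It was at 75.7 and 55.6 CPM in CDK9 KO cells and 88.5 and 70.9 CPM in CDK7/9 KO cells at 72 and 96 h, against 116 to 154 CPM in the 6 CDK9-intact libraries (median 136). All 4 CDK9-targeted values lay below all 6 others, and the log2 fold change was -0.91 ± 0.08 (SE; adjusted p = 8.1e-05). SLC27A4, a fatty acid transporter with acyl-CoA synthetase activity, had 52.1, 58.3, 50.5 and 61.4 CPM in the 4 CDK9-targeted libraries against 65.1 to 81.9 CPM in the CDK9-intact ones (median 72.4). It fell by 0.40 ± 0.08 on the log2 scale (adjusted p = 0.0067), a call lost without CDK7/9 KO at 72 h (adjusted p = 0.055). FPGS, the folylpolyglutamate synthase gene next to CDK9, had 55.2, 52.05, 62.0 and 61.5 CPM against 55.1 to 78.6 CPM (median 65.6). The FPGS groups overlapped and its change of -0.21 ± 0.08 did not pass the test (adjusted p = 0.065), but the lowest CDK9-intact value came from empty vector at 96 h, and without that library its change was -0.27 ± 0.05 (adjusted p = 0.00010). AK1, an adenylate kinase, changed by -0.06 ± 0.11, and ASS1, the argininosuccinate synthase of the urea cycle, was at most 2.52 CPM in the 10 libraries.

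Of 12 members that act on chromatin, transcription or RNA, 6 fell and none rose, with a median of -0.22, beside 11.2% and 11.5% of all genes tested. With empty vector at 96 h left out, 10 fell and none rose, beside 18.9% and 18.8%. The role groups hold 5 to 12 genes each, were formed with earlier results known, and were not tested against each other. CIZ1 encodes a nuclear matrix protein of DNA replication. It was at 131.9, 133.1, 128.4 and 134.3 CPM in the CDK9 KO and CDK7/9 KO libraries, against 158 to 179.9 CPM in CDK9-intact libraries (median 172). The values did not overlap, and the log2 fold change was -0.38 ± 0.06 (adjusted p = 0.0014). SET, a histone chaperone and inhibitor of protein phosphatase 2A, had 429, 402, 409 and 428 CPM against 451 to 705 CPM (median 506), a change of -0.33 ± 0.09 (adjusted p = 0.018). That call was lost when any of 6 libraries was left out (adjusted p up to 0.12). The 705 CPM are those of empty vector at 96 h, and without that library SET changed by -0.24 ± 0.04 (adjusted p = 2.0e-05). EXOSC2, a subunit of the RNA exosome, had 56.9, 55.4, 53.3 and 53.2 CPM against 64.6 to 73.0 CPM (median 67.1), and changed by -0.31 ± 0.06 (adjusted p = 0.0054). TTF1, which terminates transcription by RNA polymerase I, had 19.1, 17.7, 18.9 and 18.7 CPM against 22.3 to 27.4 CPM (median 23.9), a change of -0.37 ± 0.07 (adjusted p = 0.0051). The groups did not overlap for either gene. GTF3C5, a subunit of the RNA polymerase III factor TFIIIC, changed by -0.24 ± 0.08 (adjusted p = 0.047), and that call was lost when any of 7 libraries was left out (adjusted p up to 0.20). EHMT1, a histone H3 lysine 9 methyltransferase and the member nearest the telomere, had 49.7, 50.2, 54.8 and 56.6 CPM against 38.5 to 70.6 CPM (median 59.9). It did not pass the test (-0.13 ± 0.10, adjusted p = 0.35), and without empty vector at 96 h, its lowest library, it changed by -0.23 ± 0.05 (adjusted p = 0.00061).

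In the cytoskeleton, Golgi and membrane traffic group, 5 of 10 members fell and none rose, beside 11.2% and 11.5% of all genes tested. The median was -0.15, and -0.16 without empty vector at 96 h. ODF2, a protein of centriole appendages, had 72.1, 76.1, 71.2 and 75.6 CPM in CDK9-targeted libraries against 87.5 to 102 CPM in CDK9-intact ones (median 97.3). The groups were apart, and the change was -0.38 ± 0.06 (adjusted p = 0.0015). TOR1A, an ATPase of the endoplasmic reticulum and nuclear envelope, had 59.2, 55.2, 57.5 and 56.9 CPM against 64.0 to 78.3 CPM (median 73.5) and changed by -0.33 ± 0.06 (adjusted p = 0.0040). Its neighbour TOR1B, a related ATPase, had 69.9, 69.7, 70.8 and 72.9 CPM against 63.6 to 81.4 CPM (median 73.3), overlapping groups, with a change of -0.04 ± 0.07. FNBP1, which bends membranes in endocytosis, changed by -0.38 ± 0.06 (adjusted p = 0.0019), and GOLGA2, a matrix protein of the cis-Golgi, by -0.26 ± 0.06 (adjusted p = 0.012). The GOLGA2 call was lost without CDK1 KO at 72 h, CDK9 KO at 96 h or CDK7/9 KO at 96 h (adjusted p up to 0.11). SPTAN1, non-erythroid alpha spectrin, had 638, 648, 730.1 and 682 CPM against 539 to 938 CPM (median 893). It changed by -0.30 ± 0.09 (adjusted p = 0.041), a call lost when any of 8 libraries was left out (adjusted p up to 0.16). The lowest of all 10 SPTAN1 values was empty vector at 96 h, and without it the change was -0.39 ± 0.04 (adjusted p = 1.1e-08).

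With all 10 libraries, the remaining role groups had 0 to 2 members lower each, beside 11.2% of all genes tested. Their medians lay between -0.31 and -0.04 with all 10 libraries, and between -0.37 and -0.12 without empty vector at 96 h. Leaving that library out moved the signalling median from -0.093 to -0.164, with all 11 members negative. The glycosylation median moved from -0.098 to -0.201, with 3 of 5 negative. Among 6 mitochondrial members, SLC25A25, a calcium-regulated carrier of ATP-Mg and phosphate, changed by -0.41 ± 0.07 (adjusted p = 0.0027), and PTGES2, a prostaglandin E synthase family protein, by -0.36 ± 0.10 (adjusted p = 0.026), where the PTGES2 call was lost when any of 7 libraries was left out (adjusted p up to 0.12). SURF1 rose, and COQ4, ENDOG and CRAT did not pass the test. Of 7 members that modify or turn over protein or tRNA, NTMT1, which methylates protein N-termini, was at 41.0, 38.0, 33.8 and 41.3 CPM against 47.4 to 59.2 CPM (median 54.5). Its groups did not overlap, and its change was -0.48 ± 0.07 (adjusted p = 0.0015). ANAPC2, a subunit of the anaphase-promoting complex, changed by -0.04 ± 0.10 and did not pass. Of 11 signalling members only ENG, the endothelial TGF-beta co-receptor endoglin, passed, at 1.75, 1.11, 2.59 and 1.53 CPM against 2.06 to 4.28 CPM (-1.08 ± 0.19, adjusted p = 0.0027), a low level at which counting error is large. The kinase gene ABL1, the receptor gene NOTCH1, the adaptor gene TRAF2 and the tuberous sclerosis gene TSC1 did not pass with all 10 libraries. Without empty vector at 96 h they changed by -0.18 (ABL1), -0.38 (NOTCH1), -0.17 (TRAF2) and -0.04 (TSC1). NOTCH1 had 61.7, 64.1, 60.03 and 64.0 CPM in CDK9-targeted libraries, against 76.3 to 87.3 CPM in 5 CDK9-intact libraries and 37.8 CPM in empty vector at 96 h. None of the 5 glycosylation members passed with all 10 libraries. ST6GALNAC4, a sialyltransferase, had 21.1, 20.7, 22.1 and 21.2 CPM against 14.6 to 26.3 CPM (median 25.1). It changed by -0.12 with all 10 libraries, and by -0.22 without empty vector at 96 h, its lowest library. ST6GALNAC6, a related enzyme, was under 1 CPM in all 10 libraries. MAN1B1, a mannosidase that trims glycans in the endoplasmic reticulum, changed by 0.05 ± 0.06.

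**Figure D2:**
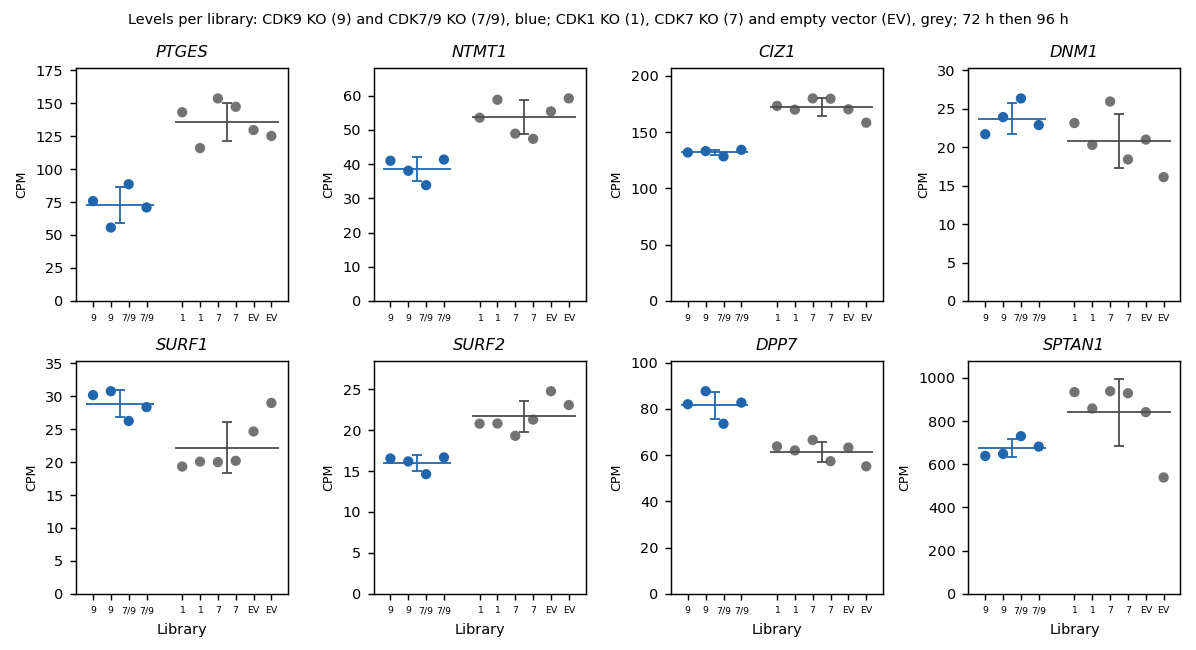
CPM per library for 8 members, with the mean (line) and SD (bar) of the 4 CDK9-targeted libraries (blue, left) and the 6 CDK9-intact libraries (grey, right), each axis starting at 0. PTGES, NTMT1, CIZ1 and SURF2 show groups that do not overlap with CDK9-targeted libraries lower, DPP7 shows them higher, and for SPTAN1 the last grey point is empty vector at 96 h at 539 CPM.

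The 3 members that rose were DPP7, SURF1 and UCK1. These are rises under TMM scaling, and all 3 turn negative when libraries are scaled to mitochondrially encoded mRNAs, a scaling that moves the median of all genes to -0.598. DPP7, a lysosomal dipeptidyl peptidase, was at 82.0, 87.6, 73.6 and 82.7 CPM in CDK9 KO and CDK7/9 KO cells against 55.1 to 66.5 CPM in the CDK9-intact libraries (median 62.6). All 4 values lay above the other 6, and the log2 fold change was 0.41 ± 0.07 (adjusted p = 0.0033). UCK1, a uridine-cytidine kinase, had 60.6, 60.02, 52.8 and 56.9 CPM against 43.95 to 54.9 CPM (median 45.95), and changed by 0.28 ± 0.07 (adjusted p = 0.015), a call lost when any of 5 libraries was left out (adjusted p up to 0.12). Its groups overlapped at 1 library, empty vector at 72 h. SURF1, an assembly factor of cytochrome c oxidase, had 30.2, 30.8, 26.2 and 28.4 CPM in the CDK9-targeted libraries. In the CDK9-intact libraries it had 19.3 and 20.1 CPM in CDK1 KO, 20.01 and 20.2 CPM in CDK7 KO, and 24.7 and 28.99 CPM in empty vector cells. Its groups overlapped at empty vector at 96 h alone, and without that library the change was 0.42 ± 0.06 (adjusted p = 7.1e-06). SURF1 changed by 0.39 ± 0.07 against all 6 (adjusted p = 0.0029), but by 0.11 against empty vector alone (adjusted p = 0.43), since the lower CDK9-intact values were those of the CDK1 and CDK7 knockouts.

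SURF1 and SURF2 are shown with their sequence because their GENCODE gene bodies overlap at the starts on opposite strands. They also moved in opposite directions. SURF2 encodes a nucleolar protein. It was at 16.5, 16.2, 14.6 and 16.7 CPM in CDK9-targeted libraries against 19.3 to 24.8 CPM in CDK9-intact ones (median 21.1), and changed by -0.44 ± 0.08 (adjusted p = 0.0031). The log2 ratio of SURF1 to SURF2, with 1 CPM added to each, averaged 0.81 in CDK9-targeted and 0.02 in CDK9-intact libraries, a difference of 0.79, and of 0.85 without empty vector at 96 h. No ratio of the 4 reached down to any of the 6. The pair was chosen after its values were seen, so these ratios are a description with no test. In GENCODE release 29 the gene bodies, SURF1 on the minus strand and SURF2 on the plus strand, share 125 bases at their starts. The strand setting of the authors' counting is not given in the sources used here. The RefSeq promoter of SURF1, from 250 bases before to 50 after its start (GRCh38.p14, chr9:133356438-133356737, minus strand), holds the annotated start of SURF2 at its base 186. Capitals mark the letters CCGGAAG, the core of an ETS factor motif.

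SURF1 promoter: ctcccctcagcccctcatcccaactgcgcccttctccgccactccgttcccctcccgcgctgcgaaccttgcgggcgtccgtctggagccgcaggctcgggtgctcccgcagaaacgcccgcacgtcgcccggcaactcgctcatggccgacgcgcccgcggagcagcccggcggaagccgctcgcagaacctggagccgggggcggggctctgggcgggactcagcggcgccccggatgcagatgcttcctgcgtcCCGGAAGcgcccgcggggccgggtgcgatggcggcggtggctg

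The motif was searched on both strands, was found at base 258, overlapped no other motif searched, and occurs in 10.3% of all 35116 RefSeq promoters of that length. The motif letters AAGATGGC of YY1, in 2.89% of promoters, and TATAAA, in 11.5%, were not in this window. The window is 75.3% G or C, where all promoters have a median of 58.7%, and the 81 promoters matched to 50 of the members have a median of 71.7%.

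Ratios of other neighbours were described in the same way. CIZ1 and DNM1, a dynamin of endocytosis, overlap head to head, and their log2 ratio was 2.43 in CDK9-targeted against 3.00 in CDK9-intact libraries, a difference of -0.57, or -0.53 without empty vector at 96 h. DNM1 itself had 21.7, 23.9, 26.3 and 22.9 CPM against 16.1 to 25.9 CPM (median 20.6) and did not pass the test (0.20 ± 0.09, adjusted p = 0.15). NTMT1 and ASB6, a SOCS-box protein gene, overlap at their 3' ends by 1528 bases, and their log2 ratio differed by -0.38, or -0.30 without that library. Reads from such overlapping 3' ends cannot be told apart unless the counting used strand.

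**Figure D3:**
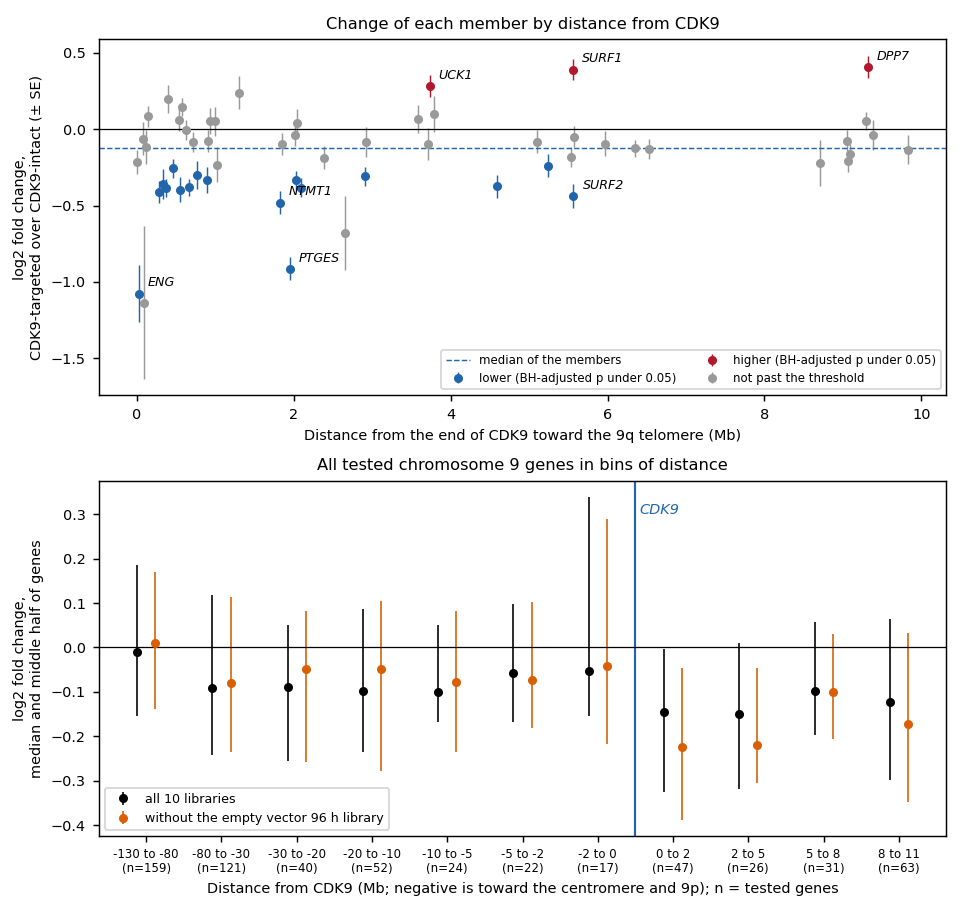
Above, the log2 fold change of each member (± SE) against its distance from the end of CDK9 in Mb. Below, the median (point) and interquartile range (bar) of all tested chromosome 9 genes in bins of distance, with all 10 libraries (black) and without empty vector at 96 h (orange). The median within 2 Mb is lower on the telomere side of CDK9 than on its centromere side in both fits, the telomeric bin from 5 to 8 Mb is about as low as centromeric bins with all 10 libraries, and the bars overlap.

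Position was then compared along the whole chromosome. The 19 members nearest to CDK9, from FPGS to SET, had a median of -0.26 with 9 lower and none higher, where 11.2% and 11.5% of all genes were called. The next 19, from PKN3 to UCK1, had a median of -0.10 with 5 lower and 1 higher. The 19 nearest the telomere, from RAPGEF1 to EHMT1, had a median of -0.13 with 3 lower and 2 higher. The medians from CDK9 outward without empty vector at 96 h were -0.24, -0.18 and -0.16, with 12, 9 and 11 lower, beside 18.9% of all genes. Against empty vector alone, with all 10 libraries, they were -0.170, 0.026 and -0.060. Across the 57 members, Spearman's rho of distance and log2 fold change was 0.21, a description only, since the members share the same libraries. With all tested genes, the 17 within 2 Mb on the centromere side had a median of -0.053, and the 47 within 2 Mb on the telomere side had -0.144. Medians were -0.150, -0.099 and -0.123 in the bins from 2 to 5, 5 to 8 and 8 to 11 Mb beyond CDK9. On the centromere side of CDK9, the 276 tested genes of 9q had a median of -0.091, with 45 lower and 27 higher, and the 159 of 9p had -0.010, with 7 lower and 20 higher. Proximal bins from 5 to 10 and from 10 to 20 Mb away had -0.100 and -0.099, as low as the distal bin from 5 to 8 Mb. Without empty vector at 96 h the medians were -0.166 for all 167 distal genes, -0.069 for proximal 9q and 0.011 for 9p. Against empty vector alone the order was the other way round, with -0.060 for the members and -0.050 for all distal genes but -0.084 for proximal 9q. CDK9 KO against empty vector gave -0.081 for the members and -0.081 for proximal 9q, and CDK7/9 KO gave -0.045 and -0.083. With empty vector at 72 h as the single empty vector library, CDK9-targeted cells had -0.185 for the members and -0.075 for proximal 9q. The difference between the distal and proximal stretches was not tested. The median G and C content of the last 500 transcript bases was 56.2% for the members and 42.6% for all genes tested with a value. Genes of at least 53.3% GC had a median of 0.007, and the 34 members among them had -0.107. Of the 2 tested genes nearest CDK9 on the centromere side, SH2D3C, an adaptor protein gene 6.94 kb away, averaged 0.768 CPM in CDK9-targeted and 0.130 CPM in CDK9-intact libraries. Counting error is large at that level. The gene could pass the filter on low counts only through the CDK9-targeted libraries, so no test is read for it. TOR2A, a torsin family gene, averaged 9.66 and 10.7 CPM and did not pass (-0.15 ± 0.11, adjusted p = 0.34).

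The choice of CDK9-intact libraries mattered. Against empty vector alone, the members' median was -0.060, with 12 lower and 1 higher, beside 9.33% and 8.66% of all genes. With empty vector at 72 h as its single library, 22 were lower and 1 higher, beside 8.85% and 7.59%. Against CDK1 KO and CDK7 KO, in which another locus was targeted, it was -0.181, with 15 lower and 4 higher, beside 9.38% and 9.17%. Against empty vector and CDK7 KO, which balances CDK7 targeting, it was -0.114, with 15 lower and 3 higher, beside 9.67% and 10.3%. Without empty vector at 96 h that median was -0.177, with 29 lower and 5 higher, beside 15.9% and 15.3%. These comparisons share the CDK9-targeted libraries.

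Each knockout was also set against empty vector, and these comparisons share the empty vector libraries. CDK9 KO had a member median of -0.081, with 8 lower and 1 higher, beside 3.82% and 4.34% of all genes. CDK7/9 KO had -0.045, with 10 lower and 1 higher, beside 5.62% and 5.72%. The members that fell in CDK9 KO included PTGES (-0.97), SURF2 (-0.55), NTMT1 (-0.53) and TTF1 (-0.51), and those that fell in CDK7/9 KO included PTGES (-0.68), SURF2 (-0.61), NTMT1 (-0.61) and EXOSC2 (-0.39). CDK1 KO had 0.127 and CDK7 KO 0.081, with no member called in either by edgeR or by DESeq2, beside 0.0298% lower and 0.322% higher for CDK1 KO and 0.00596% lower and 0.0179% higher for CDK7 KO. At an unadjusted p under 0.05, 2 members were lower and 11 higher in CDK1 KO, beside 10.9% and 11.7% of all genes, and 3 lower and 4 higher in CDK7 KO, beside 8.57% and 8.63%. The medians of CDK1 KO and CDK7 KO were negative under mitochondrial scaling, at -0.214 and -0.231, where all genes had -0.325 and -0.317. Without empty vector at 96 h, CDK9 KO had a median of -0.193 with 20 members lower and 1 higher, beside 6.49% and 5.73% of all genes, and CDK7/9 KO had -0.193 with 20 lower and 1 higher, beside 7.87% and 6.81%. CDK1 KO then had 0.0017 with none called by edgeR, beside 0.998% and 1.39%, and 9 lower and 5 higher at an unadjusted p under 0.05, beside 8.02% and 7.96%. CDK7 KO had -0.036 with 1 lower and 1 higher, beside 0.678% and 0.661%. Without empty vector at 72 h, the medians of CDK9 KO and CDK7/9 KO turned positive, at 0.048 and 0.058, each with 14 lower and 18 higher, beside 21.3% and 18.5% of all genes for CDK9 KO and 22.8% and 19% for CDK7/9 KO. CDK1 KO then had 4 lower and 23 higher, beside 21% and 18.8%, and CDK7 KO 6 lower and 22 higher, beside 19.6% and 16%.

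Taken alone, the 72 h libraries gave a member median of -0.18 with 12 of 56 tested members lower and none higher, beside 3.75% and 3.94% of all genes. The 96 h libraries, which hold the empty vector library that stood apart, gave -0.08 with none called by edgeR, beside 0.0612% and 0.135%, where 13 members were lower and 3 higher at an unadjusted p under 0.05, beside 7.02% and 8.48% of all genes, and DESeq2 called 1 in each direction. Each fit of 1 time has 3 residual degrees of freedom. The difference between the times was called for none of the 57 members, and for 0% of the 16783 genes, by edgeR or by DESeq2, and 2 members had an unadjusted p under 0.05, beside 2.54% of all genes. A change with time was not detectable with 1 library per genotype and time.

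The same comparison was made at the other targeted loci, each with the library score used above. For the 405 tested genes of 10q distal to CDK1, the score was -0.140 and -0.173 in CDK1 KO cells and 0.006 to 0.096 in the other 8 libraries. For the 513 tested genes of 5q distal to CDK7, it was -0.094 to -0.083 in the 4 libraries with CDK7 targeted and 0.042 to 0.078 in the other 6. The groups were apart at both loci, whereas at 9q34 empty vector at 96 h overlapped them. The difference of the mean scores, targeted minus the rest, was -0.192 for 10q, -0.140 for 5q and -0.120 for the 9q34 members. The 10q and 5q sets hold all tested distal genes, and all 167 tested genes distal to CDK9 had -0.111. In CDK7/9 KO cells both the 9q34 members and the 5q genes scored below zero, and in CDK9 KO cells the 5q genes scored 0.054 and 0.044. The median log2 fold change was -0.193 for the 10q genes in CDK1 KO cells against the other 8 libraries, with 56 lower and 12 higher of 405, beside 1.56% and 4.70% of all genes. It was -0.159 for the 5q genes in CDK7-targeted against CDK7-intact libraries, with 15 lower and none higher of 513, beside 0.554% and 0.119%. In those same comparisons the 9q34 members had medians of 0.148, with 1 lower and 5 higher, and 0.018, with none called by edgeR. In the second, 7 were lower and 1 higher at an unadjusted p under 0.05, beside 7.62% and 6.66%, and DESeq2 called 1 lower. The other 8 libraries of the CDK1 comparison include the CDK9-targeted ones, and the CDK7 comparison holds CDK9-targeted libraries on both sides. Against empty vector, the members' median in CDK1 KO cells was 0.127, and 0.0017 without empty vector at 96 h. Without empty vector at 96 h, 178 of the 10q genes were lower and 23 higher in CDK1 KO cells, beside 10.4% and 11.9% of all genes, and the 9q34 members had 3 lower and 18 higher. With CDK7 targeted, 169 of the 5q genes were then lower and 1 higher, beside 4.7% and 4.47%, and the 9q34 members had 6 lower and none higher. A lower level of genes beyond the targeted gene was therefore not particular to 9q34. Genes proximal to CDK1 and CDK7 were not summarised, so whether the lower level there begins at the targeted gene was not tested.

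**Figure D4:**
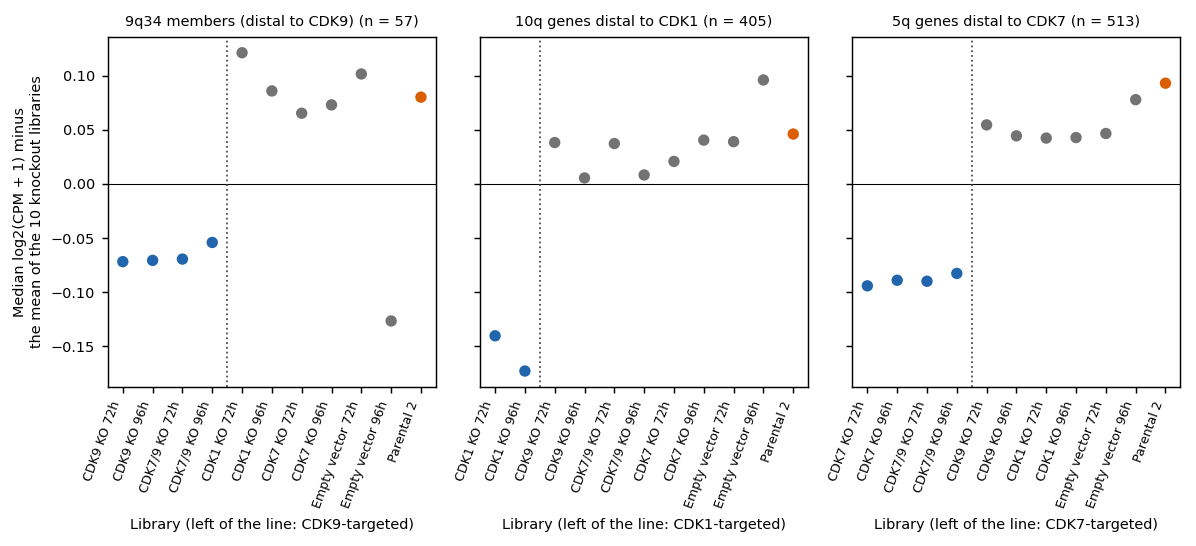
Library score, the median log2(CPM + 1) minus the mean of the 10 knockout libraries, for the 57 members, for 405 genes of 10q distal to CDK1 and for 513 genes of 5q distal to CDK7. In each panel the libraries in which that locus was targeted are blue and left of the line, the others are grey and the parental library is orange. All blue points are below 0, and the grey point below 0 is empty vector at 96 h in the 9q34 panel.

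In the inhibitor libraries, where the CDK9 gene was not targeted, the members as a group were not lower. SY200 gave a member median of 0.057 over the 56 tested members, against -0.012 over all 18911 genes, with none called by edgeR, beside 1.02% lower and 0.968% higher. At an unadjusted p under 0.05, 3 members were lower and 5 higher with SY200, beside 8.88% and 8.02% of all genes, and DESeq2 called 1 higher. V50 gave 0.074, against -0.004 over all genes, with 2 lower and 10 higher members, beside 11.9% and 10.4%. Both counts depended on single libraries. Higher members numbered 2 to 6 when DMSO or V50 at 3, 6 or 12 h of MDA-MD-231, or DMSO or V50 at 3 h of MDA-MD-468, was left out, and lower members 7 without SY200/V50 at 12 h of either line, and 4 without parental or SY200 at 6 h of MDA-MD-231 or SY200 at 6 h or V50 at 12 h of MDA-MD-468. SY200/V50 gave 0.215, against 0.087 over all genes, with 11 lower and 21 higher, beside 24.2% and 24% of all genes. Scaled to mitochondrially encoded mRNAs the 3 medians were -0.369, -0.835 and -1.22, where all genes had -0.437, -0.917 and -1.33, so that the members lay above the median of all genes under both scalings.

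Single members moved strongly under the inhibitors. ABL1, the non-receptor tyrosine kinase gene, was at 117 (DMSO) and 121 CPM (parental) at 0 h in MDA-MD-231, and at 69.5, 31.8 and 15.7 CPM after 3, 6 and 12 h of SY200/V50. In MDA-MD-468 it was at 80.1 and 78.2 CPM at 0 h and at 36.5, 23.2 and 16.3 CPM after 3, 6 and 12 h. Every treated value was below every 0 h value of its line, and the log2 fold change was -1.78 ± 0.15 (adjusted p = 3.1e-07). With V50 alone ABL1 was at 76.7, 28.98 and 124.5 CPM after 3, 6 and 12 h in MDA-MD-231, lowest at 6 h, and at 39.5, 28.6 and 80.6 CPM in MDA-MD-468 (-0.83 ± 0.15, adjusted p = 0.0014). Also lower with SY200/V50 were SURF6, a nucleolar protein gene (-1.56 ± 0.20, adjusted p = 1.0e-05), TRAF2, the TNF receptor adaptor (-1.46 ± 0.18, adjusted p = 6.4e-06), and EHMT1 (-1.18 ± 0.13, adjusted p = 3.2e-06).

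Members that rose with SY200/V50 included DNM1 (0.96 ± 0.16), DPP7 (0.86 ± 0.15), PHPT1, a phosphohistidine phosphatase gene (0.85 ± 0.15), and CIZ1 (0.71 ± 0.10), each of which is negative under mitochondrial scaling. DPP7 was at 31.7 (DMSO) and 44.6 CPM (parental) at 0 h in MDA-MD-231 and at 61.4, 73.9 and 108 CPM after 3, 6 and 12 h of SY200/V50. In MDA-MD-468 it was at 39.9 and 43.1 CPM at 0 h, and at 49.0, 69.1 and 82.3 CPM after 3, 6 and 12 h, above both 0 h values in each line (adjusted p = 0.00024). SURF1 rose with V50 (0.61 ± 0.15, adjusted p = 0.0098) and DPP7 did too (0.55 ± 0.15, adjusted p = 0.017), again with negative values under mitochondrial scaling. The DPP7 call with V50 was lost without DMSO or V50 at 6 h of MDA-MD-231 (adjusted p = 0.070 and 0.058). CIZ1, which fell in CDK9-targeted cells, was at 175.2 and 174.8 CPM at 0 h and at 269, 291 and 387 CPM after 3, 6 and 12 h of SY200/V50 in MDA-MD-231. No gene of 18911, or 0%, was called by edgeR for a difference between the lines in its response to any of the 3 treatments. At an unadjusted p under 0.05, the response to SY200/V50 was lower in MDA-MD-468 than in MDA-MD-231 for 11 of 56 members and higher for 1, beside 9.94% and 5.98% of all genes.

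**Figure D5:**
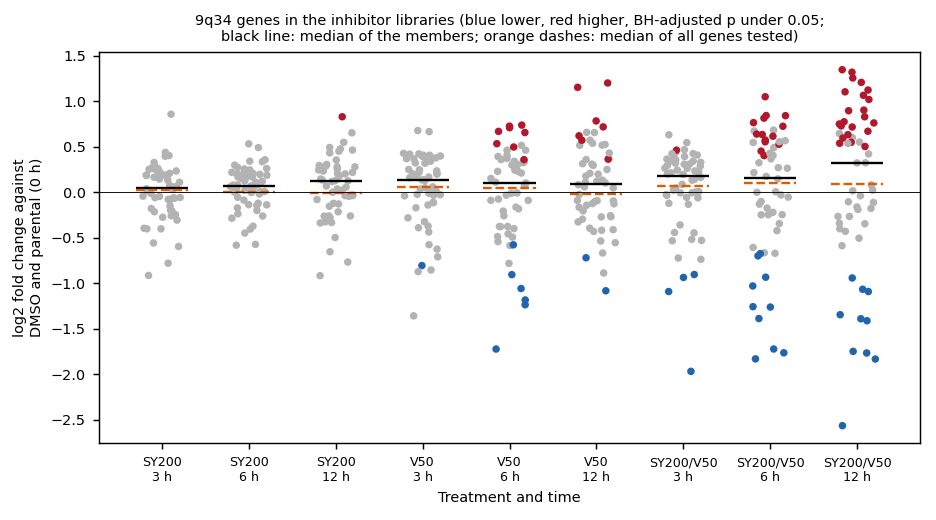
Log2 fold change of each tested member against the DMSO and parental libraries at 0 h, by treatment and time, with members past the threshold in blue (lower) or red (higher) under TMM scaling. Black lines are member medians and orange dashes the medians of all genes tested. With SY200/V50 at 12 h the member median is 0.324 and that of all genes 0.089, and both tails are widest.

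The 2 lines differed in these genes across the 22 inhibitor libraries. MDA-MD-468 over MDA-MD-231, with condition in the model, the member median was -0.41, against 0.107 over all genes, with 35 lower and 9 higher of 56, beside 37.2% and 43% of all genes. ASS1 was at 296 (DMSO) and 298 CPM (parental) in MDA-MD-468 and at 1.52 and 1.56 CPM in MDA-MD-231 (log2 fold change 7.85 ± 0.13, adjusted p = 1.5e-18). ENG was higher in MDA-MD-468 as well (3.67 ± 0.18, adjusted p = 2.7e-12), and ST6GALNAC4 had the largest fall (-3.32).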

How the data were processed

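The authors deposited raw whole-number counts of reads for each symbol in each library. The submitters' processing notes name STAR 2.7.10a, FastQC and GRCh38. What counted the reads, with which strand setting and whether identifiers of molecules were used, is not given in the sources used here, and the tests take each count as deposited. Tests used edgeR 4.0.16 (R 4.3.3) (filterByExpr with minimum count 10 and minimum total 15, TMM, quasi-likelihood F test, Benjamini-Hochberg over all genes tested). The knockout model had genotype and time (10 libraries, 4 residual degrees of freedom), and the inhibitor model had condition and line (22 libraries, 11 residual degrees of freedom, DMSO and parental pooled as control). SE is the log2 fold change divided by the square root of F. Scores and ratios used log2(CPM + 1). The scripts were tested on simulated counts. Positions are from GENCODE release 29, and promoters are from RefSeq (GRCh38.p14).

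Named genes were the 3 targeted genes, any member, with full statistics for up to 20 members past the threshold, the 5 largest falls and rises where the mean reached 10 CPM and the 5 members at each end of the stretch, up to 4 members per direction in each inhibitor comparison, and 2 genes proximal to CDK9. The members, role groups and marker lists were chosen with earlier results of these data known. Alternatives were DESeq2 1.42.0, DESeq2 size factors, scaling to the 13 mitochondrially encoded mRNAs, no filter, other models and references, single times and each library left out. The neighbour ratios, GC content, markers by group, and values without either empty vector library for sets of genes were added after the data were seen.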

Additional observations from a re-analysis of the deposited data

Results flagged for a closer look

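In groups of 4 or 6 libraries, 64 values were screened for a highest or lowest library whose gap to its nearest neighbour exceeds Dixon's 95% limit for the group's range. Chance flags about 1 in 20 groups. The screen covered only part of the 57 members. Of the 8 values found, 6 came from the empty vector library at 96 h among the 6 CDK9-intact libraries. It was the highest for SET, at 705 CPM where the other 5 had 451 to 530.1 CPM, and for EXOSC2, at 73.0 CPM where they had 64.6 to 67.7 CPM. It was the lowest for SPTAN1, at 539 CPM where the others had 841 to 938 CPM, for CRAT, a carnitine acetyltransferase gene, at 30.4 CPM where they had 46.4 to 55.6 CPM, and for ST6GALNAC4, at 14.6 CPM where they had 22.9 to 26.3 CPM. Its score over the 57 members was -0.126, where the other 5 had 0.065 to 0.121. UCK1 was highest in empty vector at 72 h, at 54.9 CPM where the other 5 had 43.95 to 47.6 CPM. Among the 4 CDK9-targeted libraries, the member score of CDK7/9 KO at 96 h was -0.054, where the others lay between -0.072 and -0.069.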

How the results depend on the processing

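The members' median, CDK9-targeted over CDK9-intact, was negative under every alternative run, and with 1 library left out it ranged from -0.172 to -0.094, with 12 to 32 members lower and 2 to 9 higher. Higher members numbered 1 against empty vector alone and 0 with the 72 h libraries, and the 96 h libraries gave 0 lower and 0 higher. Taking all 167 distal genes gave 41 lower and 11 higher.

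Scaling to mitochondrially encoded mRNAs moved the median of all genes by -0.598 in that comparison, and the members' median to -0.714, or -0.116 relative to all genes, with 54 lower and 0 higher. Under it SURF1 was at -0.20, DPP7 -0.18, UCK1 -0.30, DNM1 -0.39, CRAT -0.34 and MAN1B1 -0.54. Against empty vector, CDK9 KO gave a median of -0.874 (53 lower, 0 higher), CDK7/9 KO -0.838 (52 lower, 0 higher), CDK1 KO -0.214 and CDK7 KO -0.231. SY200 gave -0.369 with 13 lower, V50 -0.835 with 51 lower and 0 higher, and SY200/V50 -1.22 with 56 lower and 0 higher. With V50, GLE1 was at -0.47, SURF1 -0.30, DPP7 -0.37 and PHPT1 -0.39, and with SY200/V50, CIZ1 was at -0.72, DNM1 -0.44, PHPT1 -0.58 and DPP7 -0.58. MDA-MD-468 over MDA-MD-231 gave -1.36, where all genes had -0.836. The cause was not tested.

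With no filter on low counts, higher members numbered 3 in CDK9 KO, 2 in CDK7/9 KO, 5 in CDK1 KO and 3 in CDK7 KO, lower members 2 in CDK1 KO, and higher members 5 with V50. DESeq2 called 1 member higher with SY200 and 4 lower with V50, and gave 0.266 for SY200/V50. DESeq2 size factors gave 1 higher with SY200 and 0.267 for SY200/V50. DMSO alone as control gave 0.114 for SY200, and 0.147 with 6 higher for V50.

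With 1 library left out, the median against empty vector ranged from -0.193 to 0.048 in CDK9 KO (0 to 20 lower, 0 to 18 higher), -0.193 to 0.058 in CDK7/9 KO (0 to 20 lower, 0 to 18 higher), 0.0017 to 0.182 in CDK1 KO (0 to 4 lower, 0 to 23 higher) and -0.036 to 0.166 in CDK7 KO (0 to 6 lower, 0 to 22 higher). Both ends of each median came from leaving out an empty vector library. The fit then has 1 empty vector library, assumed to vary like the other groups. Medians ranged from -0.022 to 0.109 with SY200 (0 to 1 higher), 0.028 (without V50 at 12 h of MDA-MD-231) to 0.071 with V50 (2 to 7 lower, 2 to 10 higher), 0.103 to 0.240 with SY200/V50 and -0.480 to -0.366 between lines.

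Calls lost without 1 library, all with the same direction, were SPTAN1 (8 libraries), GTF3C5 and PTGES2 (7 each), SET (6), UCK1 (5), GOLGA2 (3) and SLC27A4 (1, CDK7/9 KO at 72 h, adjusted p = 0.055), with adjusted p up to 0.20. DPP7 and PHPT1 with V50 lost theirs without DMSO or V50 at 6 h of MDA-MD-231. Replicate numbers pair no libraries, and time, shared across genotypes, is a block in the knockout model. Without that block the median was -0.125, with 16 lower and 3 higher. With 1 library per genotype and time, and ENG, ASS1 and ST6GALNAC6 at low counts, depth limits what can be seen for these 3.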
